A study of Caenorhabditis elegans with 82 samples.

Results

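The B12-dependent route of propionate breakdown was followed through 6 genes, pcca-1, pccb-1, mce-1, mmcm-1, mmaa-1 and mmab-1, which were chosen by name, out of the 46748 genes of the count table. N2 worms, the laboratory wild type of Caenorhabditis elegans, were grown on 1 of 4 bacterial lawns, namely the Ochrobactrum isolate MYb71, a second Ochrobactrum isolate labelled MYb65 (the study's methods name MYb237 instead, and whether both names mean the same strain was not settled here), a mixture of both (Mix), or Escherichia coli OP50, the usual laboratory food, against which the others were compared. Whole worms were collected as L2, L3 and L4 larvae at 6, 24 and 48 h, as adults at 72 h (Ad1) and as adults of 3 and 7 days (Ad3 and Ad7), and their RNA was sequenced. All worms were of the same strain, kept on their bacterium for generations beforehand, and the groups differed in bacterium and age. By the study's methods, larvae were washed off their plates and spun down, while adults were picked by hand. Larval or adult age and the way of collection thus cannot be told apart. Of 82 libraries given, 71 entered the tests, 3 in each group apart from 2 of MYb65 L2 larvae, which made 18 for MYb71, 17 for MYb65, 18 for Mix and 18 for OP50.

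Propionyl-CoA is left over when worms break down valine, isoleucine and odd-chain fatty acids, and it is harmful when it builds up. The canonical route turns it into succinyl-CoA, which enters the citric acid cycle, and its last enzyme needs adenosylcobalamin, a form of vitamin B12. When little B12 is at hand, C. elegans uses a second route, the propionate shunt, whose first gene is acdh-1, and OP50 is known as a food poor in B12. The genes pcca-1 and pccb-1 code for the alpha subunit, which carries biotin, and the beta subunit of propionyl-CoA carboxylase. The gene mce-1 codes for methylmalonyl-CoA epimerase and mmcm-1 for the B12-dependent methylmalonyl-CoA mutase. The genes mmab-1 and mmaa-1 are the worm counterparts of human MMAB, which makes adenosylcobalamin, and of human MMAA, a GTPase that guards the loading of this cofactor onto the mutase.

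In WBcel235, the assembly of the release the authors mapped to, pcca-1 (WBGene00017864) lies on chromosome X from 7657542 to 7660986 on the minus strand, and pccb-1 (WBGene00018701) on chromosome X from 3089549 to 3092437 on the plus strand. The epimerase gene mce-1 (WBGene00008415) lies on chromosome I from 7582106 to 7583333 on the plus strand, and the mutase gene mmcm-1 (WBGene00014202) on chromosome III from 3903185 to 3907687 on the minus strand. The gene mmaa-1 (WBGene00020169) lies on chromosome II from 7099583 to 7101165 on the minus strand and has 3 annotated transcripts, and mmab-1 (WBGene00016144) lies on chromosome III from 4920442 to 4922114 on the minus strand. All of them are protein-coding, and values are sums over whole genes, exons of every transcript included. The pccb-1 gene shares 43 bases with wrt-2 on the other strand, and as the libraries were not stranded, reads from these bases cannot be told apart.

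Total counts per library ranged from 10513060 to 74552875, with a median of 21133979. The 6 genes all passed the filter on low counts and had between 281 and 24974 counts in every tested library. Levels are given in CPM, read counts relative to the size of the library, scaled by TMM, a factor that corrects for library composition. All 71 tested libraries were closest in expression to their own stage, while OP50 L2 replicate 3 and OP50 L3 replicate 3, which were not tested, were closest to Ad3 and Ad7. Of 40 marker genes in 8 tissue lists, 3 of 120 results against OP50 passed across stages, and 0 of 684 passed within stages. The 3 were the intestinal esterase ges-1 on MYb71 (log2 fold change 0.40) and MYb65 (0.39) and the sperm gene msp-10 on MYb65 (2.01). Of all genes, 4.66%, 5.05% and 2.82% passed across stages on MYb71, MYb65 and Mix, and from 0% to 0.848% within stages. The methods describe replicates as separate runs of the exposure, and the labels do not say which run a library came from.

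Against OP50, mmaa-1 was the only gene of the 6 that passed the test. Its transcript was less abundant in L2 and L3 larvae on MYb71, MYb65 and Mix, at 0.260 to 0.352 times the mean level on OP50, while at Ad7 the estimates lay between −0.05 and 0.03 on the log2 scale. The genes for the carboxylase, the epimerase, the mutase and the adenosylcobalamin-making enzyme did not pass the test on any bacterium at any stage. Within stages, at most 0.848% of all genes passed in any of these comparisons. Differences were tested with the quasi-likelihood test of edgeR, and an adjusted p is the Benjamini-Hochberg value over all genes of that comparison, with a threshold of 0.05.

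At L2, mmaa-1 stood at 35.7, 37.6 and 34.8 CPM on MYb71, at 33.03 and 36.8 CPM on MYb65 and at 39.8, 36.1 and 30.4 CPM on Mix, against 109, 124 and 73.9 CPM on OP50. Every Ochrobactrum library lay below every OP50 library, as held, above or below, for 13.2% of all genes on MYb71, 25.9% on MYb65 and 11.8% on Mix, and the OP50 libraries were spread much more widely than the others. The log2 fold change against OP50 was −1.45 ± 0.16 on MYb71 (SE, edgeR adjusted p = 0.0018), −1.55 ± 0.19 on MYb65 (0.0035) and −1.49 ± 0.16 on Mix (0.0016). Among all 14850 genes tested at L2, 0.848% passed the test on MYb71, 0.66% on MYb65 and 0.64% on Mix, and of the 6 pathway genes 1 passed on each. The MYb65 call rests on 2 libraries, and without either of them the estimate was −1.47 (adjusted p = 0.1001) or −1.62 (0.0742), where the lone MYb65 library was taken to vary like those of the other groups. In whole worms, fewer cells that express a gene and less RNA per cell cannot be told apart.

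At L3 the gap was widest. The mmaa-1 level was 42.5, 45.4 and 40.9 CPM on MYb71, 38.9, 42.1 and 38.6 CPM on MYb65 and 42.1, 45.1 and 35.7 CPM on Mix, against 203, 170 and 86.5 CPM on OP50. Again no Ochrobactrum library reached the lowest OP50 library, where 12.6%, 18.7% and 15.2% of all genes did not overlap on MYb71, MYb65 and Mix. The log2 fold change was −1.69 ± 0.23 on MYb71 (SE, edgeR adjusted p = 0.0088), −1.87 ± 0.23 on MYb65 (0.0044) and −1.84 ± 0.23 on Mix (0.0043). The share of all genes called was 0.521%, 0.751% and 0.584% on MYb71, MYb65 and Mix at this stage, and mmaa-1 was again the single gene of the 6. Without replicate 2 of MYb71 the MYb71 value at L3 was −1.72 with an adjusted p of 0.0611. Over L2 and L3 together, the 17 Ochrobactrum libraries ranged from 30.4 to 45.4 CPM and the 6 OP50 libraries from 73.9 to 203 CPM.

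At L4 the groups overlapped, as for all but 5.14% of genes on MYb71, 3.76% on MYb65 and 4.27% on Mix. Worms on MYb71 had 89.4, 58.9 and 70.4 CPM of mmaa-1, those on MYb65 87.2, 47.4 and 77.4 CPM and those on Mix 55.9, 81.3 and 69.4 CPM, against 133, 144 and 71.2 CPM on OP50. The estimates were −0.73 ± 0.31, −0.78 ± 0.31 and −0.78 ± 0.31 on the log2 scale for MYb71, MYb65 and Mix, and none passed (edgeR adjusted p of 0.927 or above). Few genes passed at this stage at all, with 0.0821%, 0.0505% and 0.0316% of those tested.

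In adults the level of mmaa-1 on the Ochrobactrum lawns came closer to that on OP50, and by Ad7 it lay around it. At Ad1 it averaged 91.3 ± 6.86 CPM on MYb71, 87.6 ± 14.9 CPM on MYb65 and 95.8 ± 3.21 CPM on Mix, against 115 ± 35.1 CPM on OP50 (SD, n = 3 each). The 3 log2 fold changes at Ad1 lay between −0.38 and −0.29 and did not pass, at a stage where no gene at all passed (0% of 15349 on each bacterium) although 549, 504 and 376 genes had an unadjusted p under 0.05 on MYb71, MYb65 and Mix. At Ad3 the values were −0.13 ± 0.07, −0.15 ± 0.07 and −0.07 ± 0.07, and at Ad7 they were 0.03 ± 0.07, 0.02 ± 0.07 and −0.05 ± 0.07, none past the threshold. The share of genes called was 0.134%, 0.24% and 0.0706% at Ad3 and 0.404%, 0.396% and 0.476% at Ad7, so that the test did make calls in these adults. By Ad7 the mean levels were 119 ± 1.41 CPM on MYb71, 118 ± 2.53 CPM on MYb65 and 113 ± 5.71 CPM on Mix, against 116 ± 16.4 CPM on OP50 (SD, n = 3 each).

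**Figure D1:**
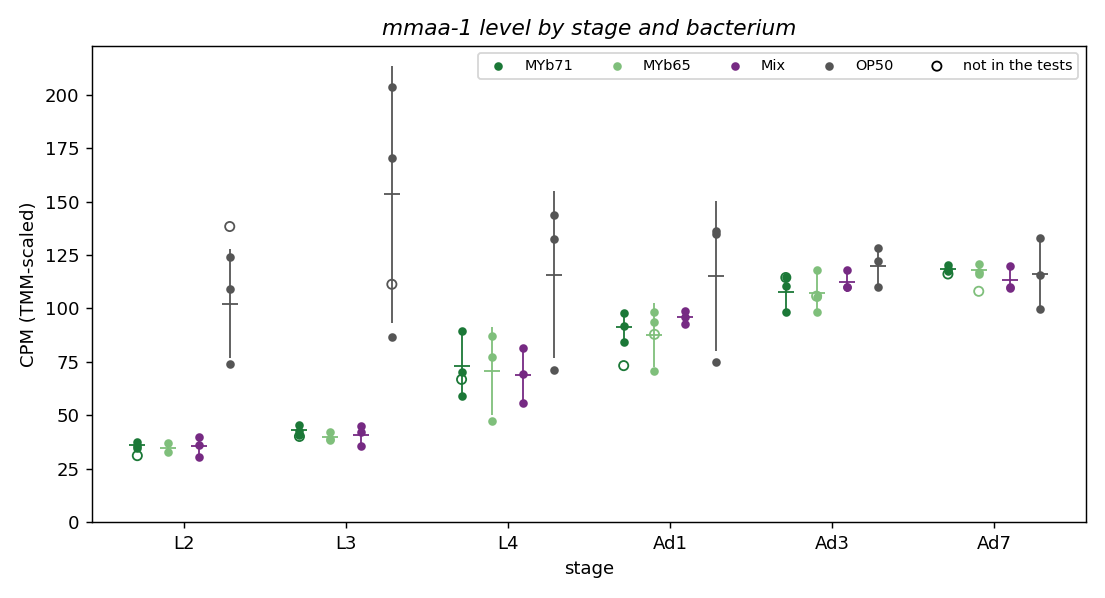
Level of mmaa-1 in CPM (TMM-scaled) at each stage on MYb71, MYb65, Mix and OP50. Filled points are the libraries in the tests, horizontal marks their mean, bars ± 1 SD, and open circles the libraries not in the tests. At L2 and L3 all tested Ochrobactrum libraries lie between 30.4 and 45.4 CPM, below all tested OP50 libraries, and by Ad7 the groups overlap.

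Whether the change against OP50 differed between larvae and adults was tested directly, in 1 model of the 24 groups of bacterium and stage. For mmaa-1 the mean change in larvae minus the mean change in adults was −1.18 ± 0.18 on the log2 scale for MYb71 (SE, edgeR adjusted p = 7.07e-05), −1.22 ± 0.18 for MYb65 (9.32e-05) and −1.26 ± 0.18 for Mix (1.78e-05). Such a difference was called for 0.207%, 0.207% and 0.152% of 18364 genes, and for 1 of the 6 pathway genes on each bacterium. The size of the mmaa-1 difference changed little when all libraries of 1 replicate number were left out, but without replicate 1 (−1.20, −1.18 and −1.16 on MYb71, MYb65 and Mix, adjusted p = 0.0969, 0.210 and 0.143) and without replicate 2 (−1.04, −1.05 and −1.22, adjusted p = 0.387, 0.377 and 0.135) it did not pass. For the other genes the larval minus adult values lay between −0.27 and 0.33, and none passed. Averaged over stages in the additive model of stage and bacterium, mmaa-1 fell, with log2 fold changes of −0.83 ± 0.14 on MYb71, −0.86 ± 0.14 on MYb65 and −0.84 ± 0.14 on Mix (SE, edgeR adjusted p = 1.01e-05, 7.85e-06 and 8.42e-06). In this model 4.66%, 5.05% and 2.82% of all genes passed on MYb71, MYb65 and Mix. The 3 comparisons share the OP50 libraries and are not independent of each other.

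Seen the other way round, mmaa-1 was a gene with a strong stage course on Ochrobactrum lawns and a weak one on OP50. Its larvae minus adults value was −1.12 ± 0.13 on MYb71, −1.17 ± 0.13 on MYb65 and −1.20 ± 0.13 on Mix, each past the threshold (edgeR adjusted p = 2.83e-11, 4.98e-11 and 3.85e-12), and 0.06 ± 0.13 on OP50 (adjusted p = 0.686, 95% interval −0.19 to 0.31). Of all genes, 74.3%, 74.9%, 75.5% and 77.5% differed between larvae and adults on MYb71, MYb65, Mix and OP50. Without the OP50 library of the highest replicate number at each stage, the OP50 value was 0.29 and passed (adjusted p = 0.0054). The 26 larval libraries on Ochrobactrum had a median of 42.1 CPM of mmaa-1 and the 27 adult ones a median of 110 CPM, whereas the 9 larval and the 9 adult OP50 libraries had medians of 124 and 122 CPM.

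The OP50 libraries were not uniform. At L2, L3, L4, Ad1 and Ad7, thus at 5 of 6 stages, the tested OP50 library with the highest replicate number held the least mmaa-1, with 73.9, 86.5, 71.2, 74.8 and 99.8 CPM. The same library also held the least transcript of acdh-1, the propionate shunt gene that B12 is known to repress, at 6 of 6 stages. It was also lowest for pccb-1 at 5 stages, for pcca-1 at 4, for mce-1 at 3, for mmcm-1 at 2 and for mmab-1 at 1. At Ad1, for example, acdh-1 stood at 1182, 1278 and 11.4 CPM in OP50 replicates 1, 2 and 3, and at L3 it stood at 2725, 3307 and 1353 CPM in OP50 replicates 1, 2 and 4. On the Ochrobactrum lawns acdh-1 ranged from 0 to 7.71 CPM at Ad1 and from 0.445 to 4.06 CPM at L3. These OP50 libraries also had the smallest total count of the tested OP50 libraries at 6 of 6 stages, from 14523794 at L2 to 21091675 at Ad3. How often they were lowest over all genes was not counted, and 1 of 3 libraries is lowest for any gene. What set these OP50 libraries apart was not tested. Without these 6 OP50 libraries, a choice made after their values were seen, the change of mmaa-1 across stages was −1.05 on MYb71, −1.08 on MYb65 and −1.09 on Mix, at L2 it was −1.59, −1.68 and −1.63, and at L3 it was −1.94, −2.12 and −2.09, each past the threshold.

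The intestine is the main tissue that meets the bacteria, and its markers elt-2, ges-1, ifb-2, act-5 and pept-1 were all expressed. Their summed level at L2 was 1696 to 3064 CPM on MYb71, 2440 to 2588 CPM on MYb65 and 2019 to 2782 CPM on Mix, against 1616 to 2139 CPM on OP50. At L3 the sums were 1495 to 3639, 2539 to 3235 and 3140 to 3776 CPM on MYb71, MYb65 and Mix, against 2095 to 3572 CPM on OP50, with the lowest library on MYb71. Their part in the change of mmaa-1 was not tested. None of the 40 marker genes passed the test for a larval minus adult difference. Of all genes, 0.207%, 0.207% and 0.152% passed it on MYb71, MYb65 and Mix, so that no call among 40 genes says little.

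The second gene of cofactor supply, mmab-1, had the lowest level of the 6, at a median of 34.8 CPM per kilobase of exon, against 67.4 CPM per kilobase for mmaa-1. At L3 it stood at 27.0, 22.9 and 34.6 CPM on MYb71, at 26.03, 24.5 and 24.7 CPM on MYb65 and at 28.6, 27.2 and 27.3 CPM on Mix, against 31.5, 31.9 and 38.6 CPM on OP50. The MYb65 and Mix libraries lay below all OP50 libraries there, as did 12.6% and 10.6% of all genes, and the MYb71 libraries overlapped with them. The estimates at L3 were −0.14 ± 0.19, −0.40 ± 0.19 and −0.26 ± 0.19 on the log2 scale for MYb71, MYb65 and Mix, with adjusted p of 0.553 or above. Across stages mmab-1 had values of −0.15 ± 0.08 on MYb71, −0.20 ± 0.08 on MYb65 and −0.18 ± 0.08 on Mix (edgeR adjusted p = 0.397, 0.151 and 0.352), with 95% intervals that reach from −0.36 to 0.02 over the 3 bacteria. A fall of mmab-1 as large as that of mmaa-1 thus lay outside these intervals, and a fall of up to 0.36 on the log2 scale within them.

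The ratio of both cofactor genes showed the contrast within single libraries. Per kilobase, mmaa-1 over mmab-1 was 0.755 to 1.07 on MYb71, 0.876 to 0.940 on MYb65 and 0.714 to 1.12 on Mix at L2, against 1.74 to 3.27 on OP50. At L3 the ranges were 0.753 to 1.26, 0.954 to 1.10 and 0.834 to 1.06, against 1.43 to 4.12 on OP50. At L4 they were 1.20 to 1.79, 1.25 to 1.79 and 1.53 to 1.61, against 1.27 to 4.29 on OP50. At Ad7 they were 2.16 to 2.24, 2.15 to 2.24 and 2.02 to 2.23, against 1.94 to 2.37 on OP50. L2 and L3 larvae on Ochrobactrum thus held similar amounts of both transcripts, while L2 and L3 larvae on OP50 and the L4 larvae and Ad7 adults on every bacterium held more mmaa-1 than mmab-1.

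The carboxylase genes pcca-1 and pccb-1 were the most abundant of the pathway, with medians of 136 and 192 CPM per kilobase. Against OP50 the log2 fold change of pcca-1 was above 0 in 18 of 18 comparisons within stages, and none passed the test. The largest values were at L4, where pcca-1 stood at 365, 367 and 326 CPM on MYb71, at 393, 282 and 367 CPM on MYb65 and at 298, 311 and 355 CPM on Mix, against 144, 251 and 287 CPM on OP50. The L4 estimates were 0.59 ± 0.27 for MYb71, 0.56 ± 0.27 for MYb65 and 0.49 ± 0.27 for Mix, with adjusted p of 0.927 or above. Across stages they were 0.23 ± 0.09 (edgeR adjusted p = 0.156, 95% interval 0.05 to 0.40), 0.19 ± 0.09 (0.221, 0.01 to 0.37) and 0.19 ± 0.09 (0.348, 0.02 to 0.37). With all 82 libraries the MYb71 value of 0.22 passed (edgeR adjusted p = 0.0402). Those include OP50 L2 replicate 3 and OP50 L3 replicate 3, which were closest in expression to Ad3 and Ad7. Without this pair of libraries, and under every other setting, pcca-1 did not pass across stages. The 18 comparisons share the OP50 libraries of each stage, so that their common sign is not 18 separate observations.

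The beta subunit gene pccb-1 followed pcca-1 loosely. Across stages it had values of 0.17 ± 0.09 on MYb71, 0.18 ± 0.09 on MYb65 and 0.11 ± 0.09 on Mix (SE, edgeR adjusted p = 0.379, 0.309 and 0.731), and 16 of its 18 values within stages were above 0. At L4 it stood at 354, 381 and 373 CPM on MYb71, 416, 263 and 391 CPM on MYb65 and 278, 304 and 412 CPM on Mix, against 175, 282 and 309 CPM on OP50. The ratio of pcca-1 to pccb-1 per kilobase lay between 0.564 and 0.989 over the 71 libraries, with a median of 0.714, so that transcripts of the alpha subunit were fewer in each library. It was highest at L3, at 0.814 to 0.939 on MYb71, 0.872 to 0.989 on MYb65 and 0.892 to 0.953 on Mix, against 0.766 to 0.894 on OP50.

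The epimerase gene mce-1 showed the smallest range over conditions besides mmab-1, with group means from 55.1 CPM (MYb65 at Ad7) to 91.9 CPM (MYb71 at L3). At L3 it stood at 60.0, 89.9 and 126 CPM on MYb71, at 62.0, 58.6 and 45.7 CPM on MYb65 and at 65.8, 64.6 and 58.6 CPM on Mix, against 61.5, 61.4 and 80.8 CPM on OP50. On MYb71, replicates 2 and 4 lay above all OP50 libraries and replicate 1 below them, and the estimate of 0.58 ± 0.28 did not pass (edgeR adjusted p = 0.507). Across stages the values were 0.08 ± 0.10 on MYb71, −0.18 ± 0.10 on MYb65 and −0.12 ± 0.10 on Mix, none past the threshold.

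The mutase gene mmcm-1, whose protein is the B12-dependent step itself, had across-stage values of 0.11 ± 0.09 on MYb71, 0.08 ± 0.09 on MYb65 and 0.08 ± 0.09 on Mix (SE, edgeR adjusted p of 0.615 or above), with 95% intervals that reach from −0.10 to 0.29. At L2, where mmaa-1 was lower, mmcm-1 stood at 150, 143 and 64.9 CPM on MYb71, at 121 and 130 CPM on MYb65 and at 170, 94.6 and 79.5 CPM on Mix, against 146, 148 and 74.99 CPM on OP50. The groups overlapped fully, with estimates of 0.01 ± 0.34, 0.04 ± 0.37 and −0.07 ± 0.33. The spread at L2 was wide. The 95% intervals of these estimates reach from −0.81 to 0.87 on the log2 scale, so that changes inside that range remain possible at this stage.

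**Figure D2:**
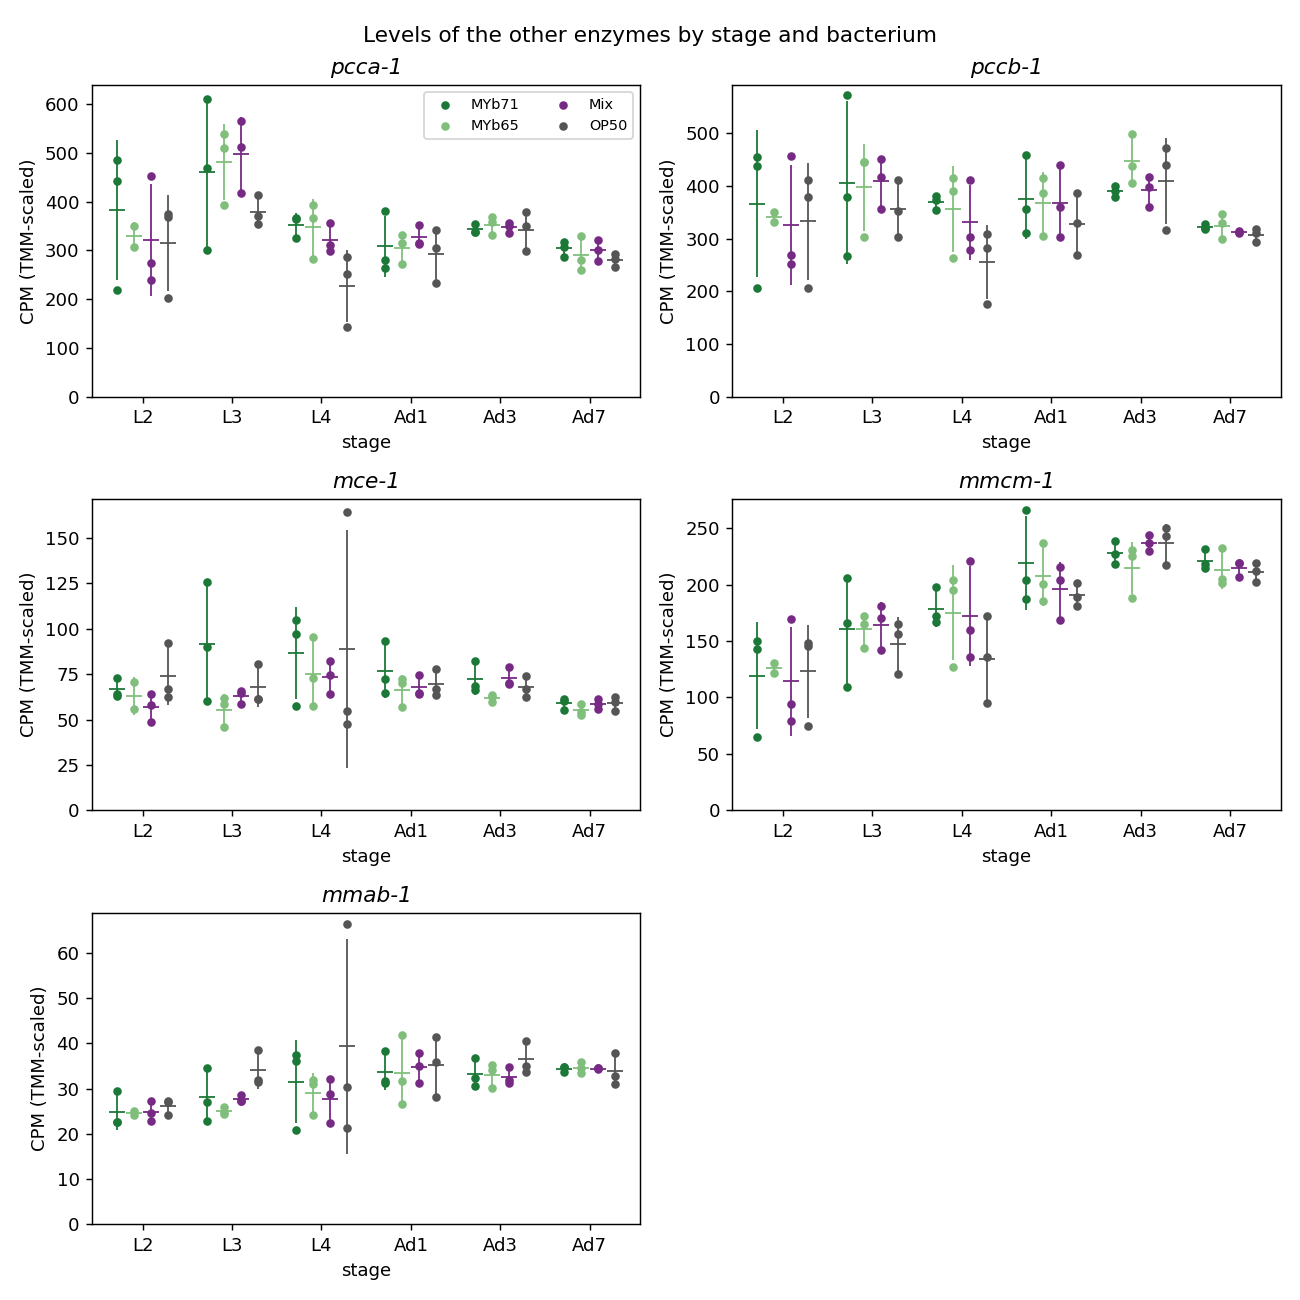
Levels of pcca-1, pccb-1, mce-1, mmcm-1 and mmab-1 in CPM (TMM-scaled) at each stage on MYb71, MYb65, Mix and OP50. Points are the 71 tested libraries, horizontal marks their mean and bars ± 1 SD. The bacteria overlap at nearly all stages, mmcm-1 is lower in larvae than in adults on each bacterium, and at L4 one OP50 library is far above the others for mce-1 (165 CPM) and mmab-1 (66.4 CPM).

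Over the 5 genes other than mmaa-1, 0 of 90 comparisons within stages passed, with log2 fold changes from −0.53 to 0.59 and adjusted p of 0.507 or above. The share of all genes called within stages ran from 0% at Ad1 to 0.848% at L2 on MYb71. At such shares, no call among 90 comparisons does not set these 5 genes apart from others. Across stages the counts at an unadjusted p under 0.05 were 1, 2 and 2 of 5 on MYb71, MYb65 and Mix, beside 2889, 3516 and 2232 of all 18364 genes. The wide spread at L4 came in part from OP50 replicate 1, which held 144 CPM of pcca-1, 175 CPM of pccb-1 and 94.9 CPM of mmcm-1, the least of the OP50 libraries, and 165 CPM of mce-1 and 66.4 CPM of mmab-1, the most. Libraries that did not overlap with those of OP50 were found for pcca-1 at L4 on MYb71 and Mix and at L3 on Mix, for pccb-1 at L4 on MYb71, and for mmab-1 at L3 on MYb65 and Mix. The share of all genes above OP50 without overlap was 2.29% and 1.96% at L4 on MYb71 and Mix, and 4.6% at L3 on Mix. In adults each of the 6 genes overlapped with OP50 on every bacterium, while the share of all genes without overlap on MYb71, MYb65 and Mix was 7.08%, 4.23% and 4.32% at Ad1, 10.4%, 8.73% and 11.7% at Ad3, and 10.9%, 10.5% and 11.8% at Ad7.

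**Figure D3:**
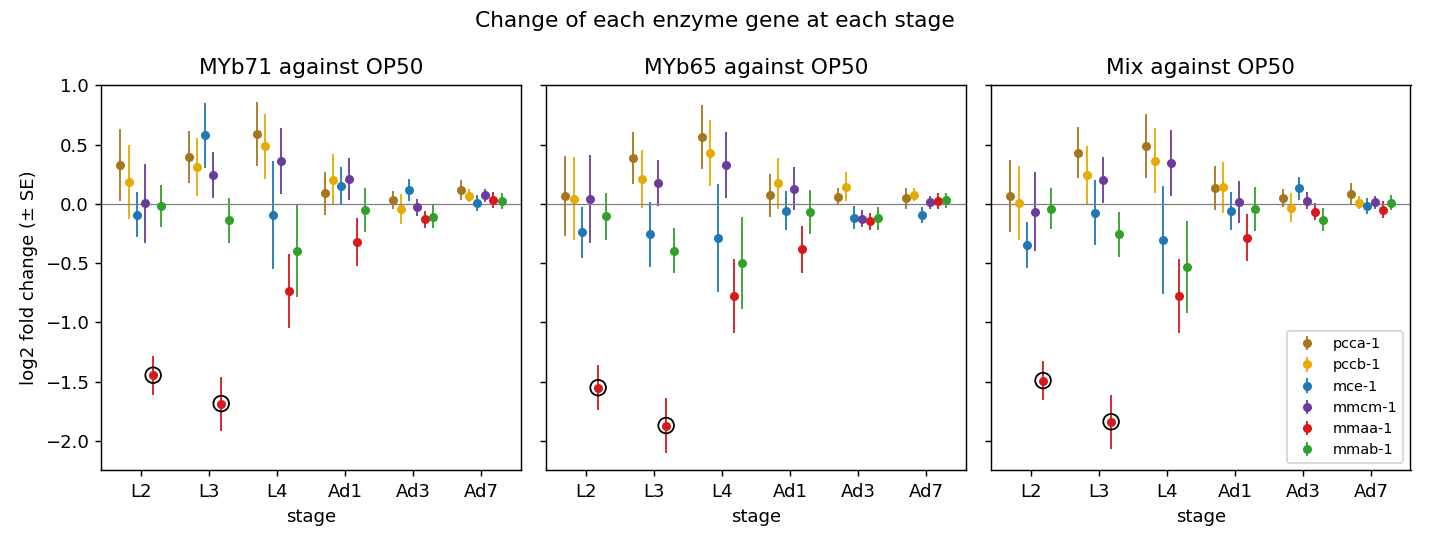
Log2 fold change against OP50 (± SE, edgeR) of the 6 genes at each stage, for MYb71, MYb65 and Mix. Rings mark an adjusted p under 0.05. Rings stand at mmaa-1 at L2 and L3 alone, with values from −1.87 to −1.45, and the other 5 genes lie between −0.53 and 0.59.

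The isolates were also set against each other. MYb71 minus MYb65 across stages gave values from −0.00 to 0.26 for the 6 genes, and 0 passed, where 0.0653% of all genes did. The value furthest from 0 was that of mce-1, 0.26 ± 0.10 (SE, unadjusted p = 0.0082, edgeR adjusted p = 0.945). For mmaa-1 the difference was 0.03 ± 0.14, with a 95% interval from −0.24 to 0.30. Mix minus the mean of the isolates gave values from −0.07 to 0.00, and again 0 of 6 passed, where 0.0109% of all genes did. The difference of mmaa-1 was 0.00 ± 0.12 there, with a 95% interval from −0.23 to 0.23.

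Larvae and adults, which were also collected in different ways, differed in 4 of the 6 genes. Averaged over the 4 bacteria, larvae minus adults was −0.86 ± 0.06 for mmaa-1, −0.56 ± 0.07 for mmcm-1 and −0.27 ± 0.06 for mmab-1 on the log2 scale (SE, edgeR adjusted p = 5.99e-18, 2.72e-10 and 9.19e-05). It was 0.19 ± 0.07 for pcca-1 (0.0079), and mce-1 (0.12 ± 0.07) and pccb-1 (−0.03 ± 0.07) did not pass. Of all genes 84.6% passed in this comparison, a larger share than 4 of 6, and the median over all genes was 0.23. Without the libraries numbered 1, pcca-1 did not pass (0.15, adjusted p = 0.132), and without those numbered 2, neither pcca-1 (0.19, 0.0509) nor mmab-1 (−0.13, 0.162) did. Without those numbered 3, mce-1 also passed (0.30, 0.00074). With no filter on low counts mmab-1 (−0.15, adjusted p = 0.0521) no longer passed and mce-1 (0.25) did, and the sign of pccb-1 turned, as it also did with total counts in place of TMM, where mce-1 (0.22) passed too. The values of mmaa-1 by bacterium are given above, and that of mmcm-1 was −0.56 ± 0.14, −0.48 ± 0.14 and −0.54 ± 0.14 on MYb71, MYb65 and Mix and −0.66 ± 0.14 on OP50, each past the threshold, though the MYb65 value without the libraries numbered 2 was −0.43 (adjusted p = 0.0505).

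From lowest to highest, the stages of mmcm-1 in the additive model ran L2, L3, L4, Ad1, Ad7 and Ad3. The steps L2 to L3 (0.39, edgeR adjusted p = 0.0022) and L4 to Ad1 (0.30, 0.013) passed, where 57% and 64.8% of all genes did, and the other neighbours did not differ beyond their spread. These orders are averages over the 4 bacteria. Those of mmaa-1 ran L2, L3, L4, Ad1, Ad3 and Ad7, with the step L3 to L4 past the threshold (0.40, 0.022), as for 81.6% of all genes. On OP50 alone the mean mmaa-1 level was 102, 153, 116, 115, 120 and 116 CPM from L2 to Ad7, highest at L3 and lower at L4, a step not tested by bacterium. Those of mmab-1 ran L2, L3, L4, Ad3, Ad1 and Ad7 with no single step past it, although Ad7 was 0.46 above L2 (3.98e-05, with 84.7% of all genes called). For pcca-1 the order was Ad7, Ad1, L4, L2, Ad3 and L3, with L3 0.38 above Ad3 (0.0011, with 86.1% of all genes called). For pccb-1 it was Ad7, L4, L2, Ad1, L3 and Ad3, and for mce-1 it was Ad7, L2, Ad3, L3, Ad1 and L4, and no neighbours differed beyond their spread in either.

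Over the 24 means of bacterium and stage, the closest pair of pathway genes was mmaa-1 and mmab-1 (Pearson r = 0.888 of log2 CPM), followed by the carboxylase pair pcca-1 and pccb-1 (0.759) and by mmcm-1 and mmab-1 (0.755). These are descriptions over means that share stages and libraries. Among 10484 genes with a mean log2 CPM of at least 2, the pattern most like that of mmaa-1 was that of mtrr-1 (r = 0.965), the counterpart of human methionine synthase reductase, which keeps the other B12 enzyme active. The genes next in likeness to mmaa-1 were mdt-18 (0.939) and F25B5.6 (0.938). At L2, mtrr-1 ranged from 24.8 to 33.3 CPM in the 8 Ochrobactrum libraries, against 106 to 190 CPM in the 3 OP50 libraries, and at Ad7 from 107 to 122 CPM in 9 Ochrobactrum libraries, against 102 to 121 CPM on OP50. As mtrr-1 was picked here by its likeness over these same groups, its levels illustrate that likeness and are no separate evidence of it. For mmcm-1 the closest were T09B9.1 (0.973), lin-41 (0.973) and dab-1 (0.969), for mmab-1 adh-5 (0.928), C35D10.5 (0.922) and lpin-1 (0.920), and for pcca-1 suox-1 (0.865), sym-4 (0.854) and madd-3 (0.852). The likeness was lower for pccb-1, with F28H6.6 (0.784), rbc-1 (0.754) and F21G4.6 (0.740), and for mce-1, with adh-1 (0.729), R04B5.5 (0.716) and H11E01.2 (0.715).

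The other B12-related genes, given by lists chosen with earlier results of these data known, are given for comparison. Of the propionate shunt, 5 of 5 genes fell on each of MYb71, MYb65 and Mix across stages, where 3.04%, 2.78% and 1.75% of all genes did. The list medians were −1.79, −1.71 and −1.75, beside medians over all genes of −0.03, −0.00 and −0.02. The 3-hydroxypropionate-oxoacid transhydrogenase gene hphd-1 fell, with log2 fold changes of −3.09 ± 0.29 on MYb71, −2.99 ± 0.30 on MYb65 and −3.22 ± 0.29 on Mix, as did the dehydrogenase gene alh-8, the last step, with −0.84 ± 0.15, −0.76 ± 0.15 and −0.78 ± 0.15 (SE, edgeR). The hydratase gene ech-6 and the hydrolase gene hach-1 had values of −1.79 and −1.56 on MYb71. For acdh-1, whose levels on Ochrobactrum included 0 at L2, only levels are given: at L2 at most 0.887 CPM in 8 Ochrobactrum libraries, against 1158 to 1788 CPM on OP50.

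In the list of B12 handling and methionine synthase, 4 of 6 genes fell on each bacterium, and 2, mmad-1 and the transporter gene mrp-5, did not pass. Of all genes, 3.04%, 2.78% and 1.75% fell across stages on MYb71, MYb65 and Mix. The methionine synthase gene metr-1, the other B12-dependent enzyme of the worm, had log2 fold changes of −1.09 ± 0.17 on MYb71, −1.11 ± 0.17 on MYb65 and −1.06 ± 0.17 on Mix. Its reductase gene mtrr-1 had −1.29 ± 0.22, −1.24 ± 0.22 and −1.31 ± 0.22, and the B12 processing gene cblc-1 −0.74 ± 0.14, −0.70 ± 0.14 and −0.78 ± 0.14. The ABC transporter gene pmp-5 had −3.11 ± 0.33, −3.11 ± 0.33 and −2.91 ± 0.32. The falls of metr-1, mtrr-1 and cblc-1, like that of mmaa-1, were larger in larvae than in adults on each of MYb71, MYb65 and Mix. For mtrr-1 the larval minus adult value was −1.94 ± 0.23, −1.86 ± 0.24 and −1.94 ± 0.23 (SE, edgeR adjusted p = 2.39e-07, 1.82e-06 and 2.24e-07). This difference was called for 0.207%, 0.207% and 0.152% of all genes on MYb71, MYb65 and Mix. That of mmaa-1 did not pass without replicate 1 or without replicate 2, as given above. Of the 3 nuclear receptor genes of the B12 response, nhr-68 fell (−2.14, −1.97 and −2.13 on MYb71, MYb65 and Mix), nhr-114 fell (−2.41, −2.27 and −2.25), and nhr-10 did not pass.

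The genes on either side of the B12-dependent route were compared across stages, where 4.66%, 5.05% and 2.82% of all genes passed on MYb71, MYb65 and Mix. At such shares, lists this short would hold few calls whatever their genes. Of the 5 genes that lead valine and isoleucine towards propionyl-CoA, dbt-1 passed on MYb71 (−0.25 ± 0.08, edgeR adjusted p = 0.049) and none on MYb65 or Mix. Of the 4 measured biotin enzymes, 0 passed on any bacterium, and of the 4 genes of succinyl-CoA synthetase, which uses the product of the route, 0 passed.

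**Figure D4:**
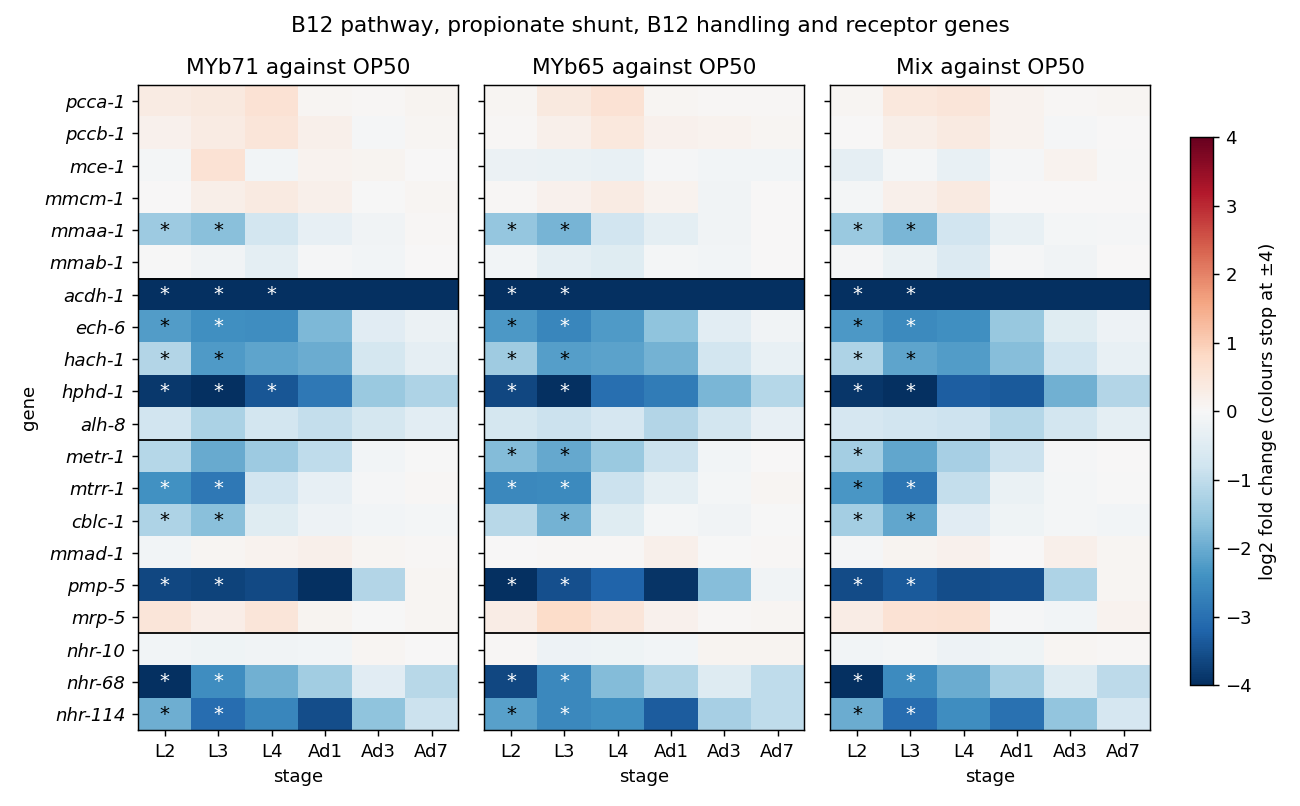
Log2 fold change against OP50 at each stage (colour, blue for lower and red for higher, with colours stopping at ±4) for MYb71, MYb65 and Mix. Rows are the 6 pathway genes, the propionate shunt, B12 handling and methionine synthase, and the receptors of the B12 response, and stars mark an edgeR adjusted p under 0.05. Of the 6 pathway genes mmaa-1 alone carries stars, at L2 and L3. The gene mtrr-1, whose pattern over the group means was the most like that of mmaa-1, also carries them there.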

How the data were processed

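RNA of whole worms was made into TruSeq libraries, which do not mark strand. The deposited values are raw counts per gene, which the authors obtained with HTSeq after Trimmomatic trimming and alignment by STAR 2.5.3a against release WS235. From these, CPM were scaled by TMM, and genes passing filterByExpr (minimum count 10, minimum total 15) entered the robust quasi-likelihood test of edgeR 4.0.16 (R 4.3.3) with Benjamini-Hochberg adjustment. An additive model of stage and bacterium, models of single stages and a model of 24 groups were fitted. Scripts were tested on simulated data.

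Groups follow the labels. Where a group had 4 libraries, replicate 3 was left out, which gave the number per group that the methods state and left 71 of 82 libraries. For 2 MYb65 libraries title and time point name different stages, and the time point was followed. Symbols came from a gene name table (43693 IDs matched). The 6 genes and all lists were chosen with earlier results of these data known. Named were the 6 genes in every comparison, list genes past the threshold across stages, and the 3 genes most like each of the 6. DESeq2 1.42.0, RLE factors, no filter, other sets of libraries and a replicate block were alternatives. Sequences and promoter motifs, also planned, were not analysed here.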

Additional observations from a re-analysis of the deposited data

Results flagged for a closer look

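For mmaa-1, the change against OP50 differed between larvae and adults by the edgeR test of the difference itself, with larval minus adult values of −1.18 on MYb71, −1.22 on MYb65 and −1.26 on Mix. With all 82 libraries, 11 groups held 4 libraries, and over the 6 genes 66 tests for a library far from the others of its group gave 3 past Dixon's 95% value, where chance alone flags about 1 in 20. The level of mmab-1 was 38.4 CPM in MYb71 replicate 4 at Ad1, against 31.2 to 31.6 CPM in the other libraries of that group, and 38.6 CPM in OP50 replicate 4 at L3, against 31.5 to 32.4 CPM in the others. The level of pcca-1 was 380 CPM in MYb71 replicate 2 at Ad1, against 265 to 283 CPM in the others.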

How the results depend on the processing

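Of 1037 values of single genes under other settings, 981 kept their direction and their side of the threshold, 15 lost a call, 6 gained one and 35 turned their direction, none of these 35 a called result. With all 82 libraries, 2 of the 6 genes passed across stages on MYb71 (pcca-1 besides mmaa-1), and within stages mmaa-1 passed on MYb65 at 1 stage in place of 2, since its L2 value of −1.74 had an edgeR adjusted p of 0.0510. There mmcm-1 had values of −0.0089, −0.033 and −0.0068 across stages on MYb71, MYb65 and Mix, larval minus adult values were −0.039 for mce-1 and −0.052 for mmcm-1 on MYb71 and −0.019 for mmcm-1 on Mix, and mmaa-1 was at −0.0039 at Ad7 on MYb65. The set of 80 libraries lacks OP50 L2 replicate 3 and OP50 L3 replicate 3, which were closest to Ad3 and Ad7, and with it pcca-1 did not pass across stages. With 80 libraries, mce-1 had −0.084 larval minus adult on MYb71 and mmaa-1 −0.0039 at Ad7 on MYb65. With a minimum log2 fold change of 1, 0 of 6 genes passed across stages on each bacterium, as mmaa-1 lies under that size. Without the highest-numbered OP50 library of each stage, mce-1 had −0.058 larval minus adult on MYb71, mmaa-1 −0.047 and −0.056 at Ad7 on MYb71 and MYb65, pccb-1 −0.013 across stages on Mix and 0.069 in larvae minus adults, which was 0.089 with no filter and 0.044 with total counts. The median over all genes of larvae minus adults shifted by 0.12 with no filter, by 0.13 without those OP50 libraries and by 0.17 without the libraries numbered 3. The causes were not tested.

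The labels do not tie replicate numbers to the runs of the exposure. Of 84 same-numbered pairs, 41 had deviations from their group means correlated above 0.1 (range −0.84 to 0.94). Among them were all 3 pairs of MYb71 and OP50 at L3 (0.59 to 0.80) and all 3 of MYb65 and OP50 at L4 (0.57 to 0.75). Other pairs were strongly negative, such as Mix and OP50 at L3 in replicates 1 (−0.77) and 2 (−0.74). The values of 1 comparison are not independent of each other, and whether the numbers pair the libraries was not tested. With the replicate block mmaa-1 had −1.63 on MYb71 at L3 (edgeR adjusted p = 0.029) and −0.76 on MYb65 at L4 (1.00). The block changed no call among the 6 genes and not the number of them that passed. Over all genes, the number called for larvae minus adults was 15561 with it and 15533 without. With the block mmaa-1 was at −0.0020 and −0.012 at Ad7 on MYb71 and MYb65 and pccb-1 at −0.024 larval minus adult on MYb65.

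Leaving out libraries in turn, the genes passing numbered 0 to 1 for the larval minus adult difference on each bacterium, 1 to 2 within stages on MYb71 and MYb65, and 2 to 5 for larvae minus adults. Ranges that crossed 0 across stages were −0.013 to 0.23 (mce-1, MYb71) and −0.21 to 0.0034 (mce-1, Mix). Those of larval minus adult values were −0.082 to 0.26 (mce-1) and −0.051 to 0.17 (mmcm-1) on MYb71, −0.062 to 0.29 (pccb-1) and −0.33 to 0.11 (mce-1) on MYb65, and −0.013 to 0.25 (mmcm-1) and −0.39 to 0.014 (mmab-1) on Mix. Those of mmaa-1 at Ad7 were −0.047 to 0.12, −0.056 to 0.11 and −0.13 to 0.038 on MYb71, MYb65 and Mix. Larvae minus adults ranged from −0.050 to 0.048 for pccb-1 and from −0.020 to 0.22 for mmaa-1 on OP50.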
